A study of Homo sapiens with 35 samples.

Results

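This account concerns 10 human genes that set the passage from G1 into S phase: the D cyclins CCND1 and CCND3, the E cyclins CCNE1 and CCNE2, the kinases CDK4 and CDK6, the inhibitors CDKN1A and CDKN1B, the transcription factor E2F1 and the phosphatase CDC25A. They were taken by symbol from 22384 measured genes, with the probe set of the highest mean where a symbol had several; each of the 10 had exactly 1. None was chosen from its values by that rule. Their RNA was measured in SUM149, a human line derived from a triple-negative breast cancer of the inflammatory type, on Affymetrix arrays of 35 samples. Cells had received DMSO (the solvent control), IR, PP242, RAD001, PP242 + IR or RAD001 + IR, and each treatment was measured as polysome RNA, the pool bound to several ribosomes, and as total RNA. That gives 12 groups of 3 arrays, except PP242 + IR in total RNA, which has 2. PP242 occupies the ATP site of the mTOR kinase and inhibits both mTOR complexes; RAD001 is everolimus, a rapamycin analog that acts on the first complex. All groups share the one cell line. Doses and times are not in the labels, nor is IR spelled out; it is taken here to mean ionizing radiation. The protocols entered for growth and extraction concern mouse forelimbs, which does not match a cell line, so nothing is taken from them. Replicates are called biological in the titles without naming separate cultures, so the p-values measure the spread between these samples only, and part of it may be technical.

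In dividing cells the D cyclins bind CDK4 and CDK6 and start the phosphorylation of the retinoblastoma protein. This releases E2F factors, which switch on the E cyclins, CDC25A and the genes of DNA synthesis; cyclin E with CDK2 then completes the step. CDKN1A (p21) and CDKN1B (p27) bind and restrain these kinases, and p21 is a well-known target of p53 after DNA damage. CDC25A removes an inhibitory phosphate from CDK2 and is itself degraded after damage. mTOR signalling is known to favour the synthesis of D cyclins and, through its second complex and AKT, to hold p27 in check.

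Genomic sequence just before the start site is shown for 3 members whose transcription is known to depend on E2F. Each line holds 70 bases, 5′ to 3′ on the gene's strand and ending at the base before the RefSeq start (build GRCh38.p14). Capitals mark TTTGGCGC, one form of the E2F site.

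CDC25A: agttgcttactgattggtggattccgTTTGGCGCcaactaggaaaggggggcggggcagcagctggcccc
E2F1: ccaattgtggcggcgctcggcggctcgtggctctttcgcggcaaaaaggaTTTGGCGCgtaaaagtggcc
CCNE1: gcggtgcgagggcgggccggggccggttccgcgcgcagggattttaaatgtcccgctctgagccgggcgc

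The CDC25A stretch lies at chr3:48188418-48188487 on the minus strand, and its motif begins 44 bases before the start. The E2F1 stretch lies at chr20:33686386-33686455 on the minus strand, with the motif 20 bases before the start. The CCNE1 stretch lies at chr19:29811921-29811990 on the plus strand and holds neither TTTGGCGC nor TTTCCCGC. Over the 250 bases before each of 35116 RefSeq starts, searched on both strands, TTTGGCGC was found in 0.55% and either motif in 1.93%. The E-box letters CACGTG occurred 3 times before CDK4, and in 6.34% of all starts at least once. These are matches of letters, and the arrays did not measure binding at them.

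The deposited values are read as log2 levels, and array medians over all 65029 probe sets ran from 4.19 to 4.84. Of measured epithelial markers, 8 of 8 lay above the median gene, with KRT5 between 14.4 and 16.7 and EPCAM between 13.8 and 15.0. ESR1, the estrogen receptor, stood at 4.16 to 4.76 and PGR, the progesterone receptor, at 3.29 to 3.83, below the median gene at 5.16. Of other cell types, 1 of 11 fibroblast markers (FAP), 2 of 11 leukocyte markers (CD14 and CD68) and 0 of 10 endothelial markers lay above the median gene. FAP ran from 8.67 to 10.5, CD14 from 4.38 to 6.60 and CD68, which cells of many kinds hold in lysosomes, from 13.2 to 15.0.

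The replicates numbered 3 of the 7 inhibitor groups that have one stood apart from their groups in the G1/S genes. Replicate 2 of PP242 + IR in total RNA stood with them; it was added to them with its values known. The level of CCNE2 on each of these 8 arrays, minus the mean of the remaining arrays of its group, was -3.72 to -2.90 log2 units. For CCNE1 this gap was -2.59 to -1.94, for E2F1 -2.00 to -1.11 and for CDK6 -1.29 to -0.76. CDKN1A ran the other way, 0.46 to 0.98 above the remaining arrays, in 8 of 8. CCND3 and CDKN1B lay below the rest of the group in 8 of 8, with gaps of -0.73 to -0.22 and -0.71 to -0.11. CCND1, CDK4 and CDC25A lay below it in 7 of 8. The arrays measured bulk RNA, so fewer cells of a kind and less RNA per cell cannot be told apart.

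**Figure D1:**
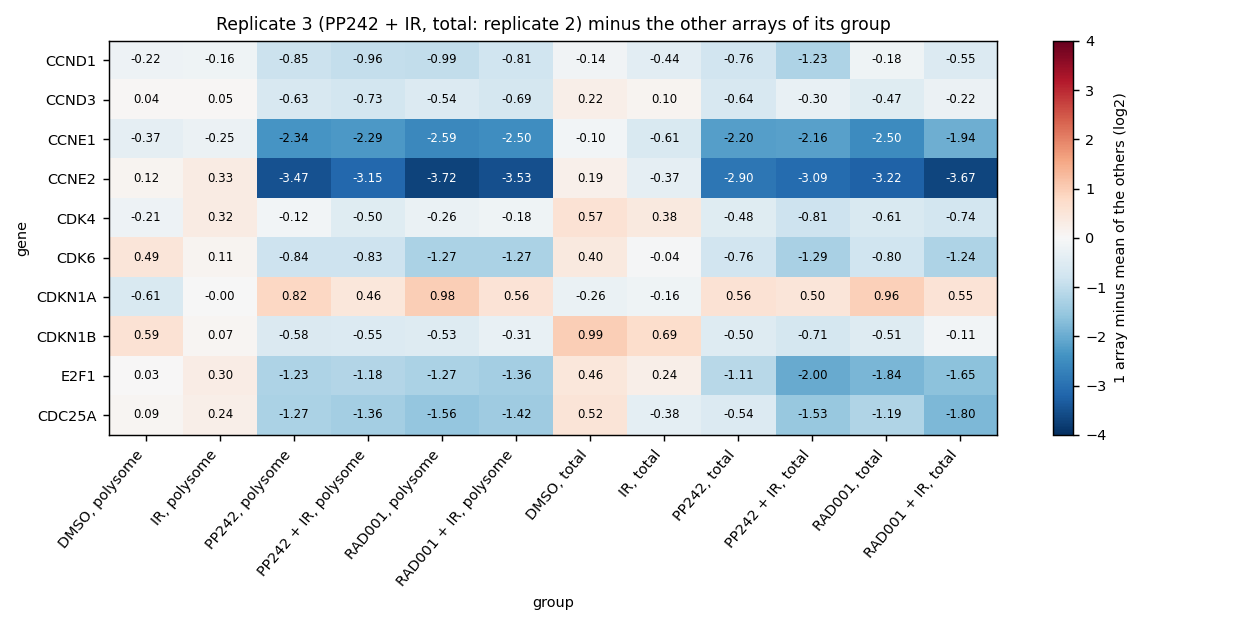
Level of replicate 3 (replicate 2 for PP242 + IR in total RNA) minus the mean of the other arrays of its group, in log2 units, for 10 genes (vertical axis) in 12 groups (horizontal axis). In the inhibitor groups the CCNE2 cells run from -3.72 to -2.90 and the CDKN1A cells from 0.46 to 0.98; in the DMSO and IR groups the CCNE2 cells run from -0.37 to 0.33.

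In replicate 3 of DMSO and of IR the gaps were smaller or ran the other way for most members. Its CCNE2 level differed from the other replicates by -0.37 to 0.33, its E2F1 level by 0.03 to 0.46 and its CDKN1A level by a median of -0.21. CCND1 lay below the other replicates in 4 of 4 of these groups (-0.44 to -0.14) and CCNE1 in 3 of 4 (gaps of -0.61 to -0.10), the same direction as in the 8 arrays, while CDKN1B lay above them in 4 of 4 (0.07 to 0.99). Across all genes, 4.16% to 6.46% differed by more than 1 log2 unit from the rest of the group in the 8 arrays, against 0.179% to 1.10% in replicate 3 of DMSO and IR. The list medians of fibroblast markers were 4.65 to 4.81 in the 8 arrays and 4.48 to 5.09 in the other 27; those of leukocyte markers were 3.92 to 4.29 and 3.91 to 4.43, and those of epithelial markers 13.1 to 14.1 and 12.9 to 14.1. No label or header names a batch, and what sets these arrays apart was not tested. The main results are therefore given with and without them.

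No member passed the test in any of 28 comparisons. The test was limma over all genes and all 35 arrays, with a call where the p adjusted by Benjamini-Hochberg was under 0.05. Values after ± are the standard error of a difference, or the SD of a level. The treatments share their DMSO arrays, so their differences from DMSO are not independent of each other. Among all genes, 0.268% were called for PP242 against DMSO in polysome RNA and 0.125% in total RNA; for PP242 + IR these shares were 0.0938% and 0.0268%. They were 0.00893% for RAD001 + IR in total RNA and 0% for IR in either RNA, for RAD001 in either RNA and for RAD001 + IR in polysome RNA. At an unadjusted p under 0.05, 3 members were lower with PP242 in polysome RNA (CCND1, CDK4 and CDC25A), where 8.44% of all genes passed that mark, and the same 3 in total RNA, where 9.42% did. With PP242 + IR it was 2 members in polysome RNA (CCND1 and CDC25A, with 5.7% of all genes) and 3 in total RNA (CCND1, CDK4 and CDC25A, with 5.25%). That total RNA group has 2 arrays, of which 1 is among the 8. In total RNA it was CDK4 with RAD001 (7.63%) and CDKN1B with RAD001 + IR (6.23%). It was 0 members with IR in polysome (0.809%) and total RNA (0.764%), and in polysome RNA with RAD001 (2.18%) and RAD001 + IR (2.36%).

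The members' median still lay below that of all genes under both inhibitors. In polysome RNA it was -0.66 with PP242, -0.48 with PP242 + IR, -0.43 with RAD001 and -0.34 with RAD001 + IR, where the medians of all genes were 0.01, 0.02, 0.01 and 0.02. In total RNA it was -1.04, -0.89, -0.75 and -0.59, against 0.02, -0.02, -0.02 and -0.03. With IR alone it was -0.01 in polysome and 0.06 in total RNA. Without the 8 arrays the polysome medians became -0.23 with PP242, -0.20 with PP242 + IR, -0.03 with RAD001 and -0.06 with RAD001 + IR, and the total RNA medians -0.52, -0.09, -0.30 and -0.10. The -0.09 with PP242 + IR rests on 1 array. Leaving out only the 7 inhibitor arrays numbered 3 kept that median at -0.89. The groups did not overlap, with the treated side lower, for 4 of 10 members with PP242 in polysome RNA, where 12.2% of all genes did so, and for 4 of 10 in total RNA, where 4.87% did. In both RNAs these were CCND1, CCNE2, CDK4 and CDC25A. With PP242 + IR it was 2 in polysome RNA (CCND1 and CDC25A), where 7.49% of all genes did so, and 3 in total RNA (CCND1, CCND3 and CDK4), where 9.22% did.

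**Figure D2:**
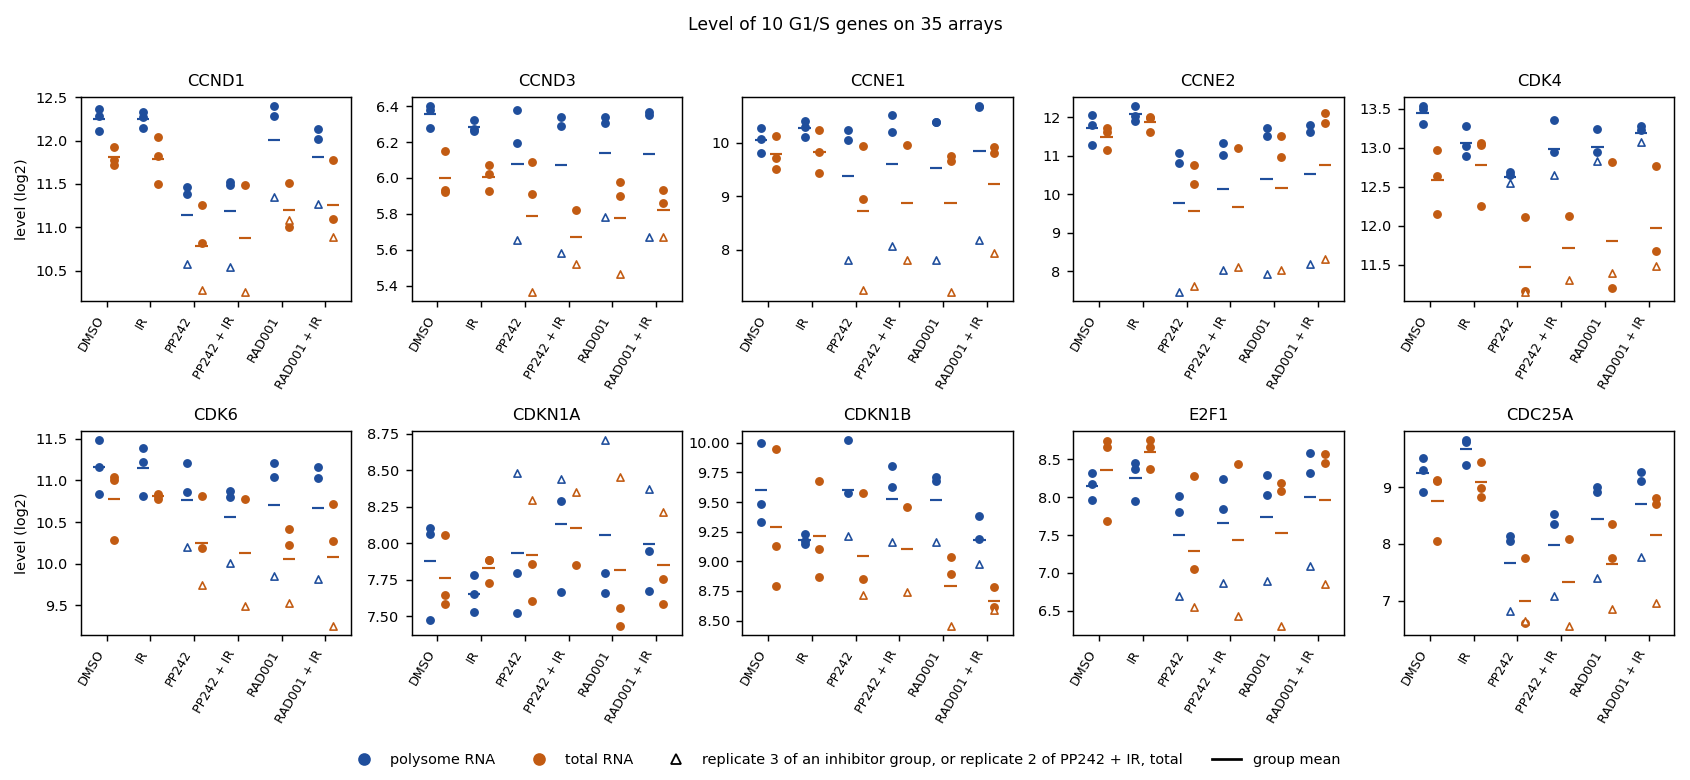
Log2 level (vertical axis) of 10 G1/S genes on 35 arrays by treatment (horizontal axis). Blue marks polysome RNA and orange total RNA; each point is an array, each bar a group mean, and open triangles are the 8 arrays described above. In the CCNE2 panel the 8 triangles lie between 7.46 and 8.31 and all other points between 10.3 and 12.3.

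CCND1, the cyclin that partners CDK4 and CDK6 early in G1, was the member with the lowest p for PP242 in polysome RNA. Its polysome levels were 12.36, 12.28 and 12.11 with DMSO, and 11.47, 11.39 and 10.58 with PP242. With PP242 + IR they were 11.52, 11.48 and 10.55. All 6 PP242 arrays lay below all 3 DMSO arrays, and the lowest value of either PP242 group was replicate 3. The difference was -1.11 ± 0.34 for PP242 (limma adjusted p = 0.222) and -1.07 ± 0.34 for PP242 + IR (limma adjusted p = 0.382). Leaving out the 8 arrays gave -0.82 ± 0.19 (limma adjusted p = 0.0796) and -0.75 ± 0.19 (limma adjusted p = 0.226).

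CCND1 in polysome RNA read 12.28, 12.40 and 11.35 with RAD001 and 12.13, 12.02 and 11.27 with RAD001 + IR. Of the RAD001 arrays 2 lay within or above the DMSO range and replicate 3 below it. The mean with RAD001 differed from DMSO by -0.24 ± 0.34, and by 0.09 when its replicate 3 was left out. In total RNA CCND1 stood at 11.93, 11.77 and 11.71 with DMSO, 11.26, 10.82 and 10.28 with PP242, and 11.01, 11.51 and 11.08 with RAD001. Neither inhibitor's arrays overlapped DMSO there; among all genes 4.97% were lower without overlap with RAD001. The differences were -1.02 ± 0.34 (limma adjusted p = 0.275) and -0.60 ± 0.34 (limma adjusted p = 0.723), and -0.76 ± 0.19 and -0.54 ± 0.19 without the 8 arrays.

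CCND3, the D cyclin prominent in blood cells, had group means from 6.07 to 6.35 in polysome RNA and from 5.67 to 6.01 in total RNA. In polysome RNA the 4 arrays set apart read 5.58 to 5.78 and the other 14 read 6.19 to 6.4. Without the 8 arrays, CCND3 differed from DMSO by -0.07 ± 0.09 with PP242 in polysome RNA.

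CDK4, a kinase partner of the D cyclins, read 13.50, 13.53 and 13.30 in polysome RNA with DMSO and 12.69, 12.65 and 12.55 with PP242. With RAD001 it read 13.24, 12.94 and 12.83, and with IR 12.90, 13.02 and 13.27. The arrays of PP242, RAD001, RAD001 + IR and IR each lay below all DMSO arrays; those of PP242 + IR, at 13.36, 12.94 and 12.65, overlapped them. Among all genes 6.05% were lower without overlap with RAD001, 5.59% with RAD001 + IR and 4.19% with IR. The differences were -0.82 ± 0.35 for PP242 (limma adjusted p = 0.495), -0.44 ± 0.35 for RAD001 and -0.38 ± 0.35 for IR. In the order of polysome means, DMSO and RAD001 + IR were the only neighbours whose arrays did not overlap.

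Without the 8 arrays CDK4 with PP242 stood -0.78 ± 0.40 from DMSO in polysome RNA. In total RNA CDK4 read 12.63, 12.15 and 12.96 with DMSO and 12.11, 11.16 and 11.16 with PP242. The PP242 arrays lay below the DMSO arrays, with the nearest pair close together. The difference was -1.11 ± 0.35 (limma adjusted p = 0.257), and -0.95 ± 0.40 without the 8 arrays.

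CDK6, the other D cyclin kinase, spanned group means of 10.56 to 11.16 in polysome and 10.06 to 10.81 in total RNA. Every pair of neighbouring groups in that order overlapped. PP242 stood -0.40 ± 0.43 from DMSO in polysome RNA and -0.12 ± 0.24 without the 8 arrays.

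CCNE2, an E cyclin that activates CDK2, was split within every inhibitor group. With DMSO its polysome levels were 12.06, 11.29 and 11.79; with PP242 they were 11.06, 10.80 and 7.46, and with RAD001 11.74, 11.52 and 7.91. In both of these inhibitor groups 1 array lay over 3 log2 units under the others, while the remaining PP242 arrays also lay below DMSO and the remaining RAD001 arrays lay inside its range. The PP242 mean was 9.78 ± 2.01 (SD, n = 3) against 11.71 ± 0.39 with DMSO. The difference of -1.94 ± 1.24 had a limma adjusted p of 0.796. Without the 8 arrays it was -0.78 ± 0.24 (limma adjusted p = 0.212), and in total RNA -0.98 ± 0.24 (limma adjusted p = 0.139). Without only the 7 inhibitor arrays numbered 3, the differences were the same with errors of 0.51 (limma adjusted p = 0.793 and 0.460). The smaller errors thus came from also leaving out replicate 2 of PP242 + IR in total RNA.

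CCNE1, the other E cyclin, read 10.05, 10.25 and 7.81 with PP242 and 10.28, 10.07 and 9.80 with DMSO in polysome RNA. The first 2 PP242 arrays sat inside the DMSO range. The difference of -0.68 ± 0.87 turned to 0.10 ± 0.25 without the 8 arrays, so the lower mean rested on replicate 3. In total RNA it moved from -1.07 ± 0.87 to -0.34 ± 0.25. With IR alone the E cyclins stood 0.22 ± 0.87 (CCNE1) and 0.37 ± 1.24 (CCNE2) from DMSO in polysome RNA. Those intervals include rises or falls of over 1 log2 unit, but their errors pool the spread of all groups. In polysome RNA the SDs with IR and DMSO were 0.15 and 0.24 for CCNE1, and 0.20 and 0.39 for CCNE2. With PP242 they were 1.36 and 2.01 for these genes. Without the 7 inhibitor arrays numbered 3, the IR differences were 0.22 ± 0.36 (CCNE1) and 0.37 ± 0.46 (CCNE2).

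E2F1, which drives the E cyclins and itself, had polysome levels of 8.33, 7.96 and 8.17 with DMSO and 7.81, 8.02 and 6.69 with PP242. In total RNA they were 8.74, 7.68 and 8.67, and 8.29, 7.04 and 6.55. The groups overlapped in both RNAs. PP242 stood -0.65 ± 0.59 from DMSO in polysome and -1.07 ± 0.59 in total RNA, and -0.24 ± 0.31 and -0.70 ± 0.31 without the 8 arrays.

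CDC25A, an E2F target and an activator of CDK2, read below all DMSO arrays on every array with PP242 alone in both RNAs, and with PP242 + IR in polysome RNA. In polysome RNA it read 9.52, 8.92 and 9.30 with DMSO, 8.05, 8.14 and 6.82 with PP242, and 8.52, 8.35 and 7.08 with PP242 + IR. In total RNA it read 9.12, 8.06 and 9.10 with DMSO and 7.75, 6.61 and 6.64 with PP242. In total RNA replicate 2 with PP242 was as low as replicate 3. That array also had the highest median over all genes, 5.36 where the other arrays of the series reached at most 5.27.

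The CDC25A difference from DMSO was -1.58 ± 0.56 in polysome RNA (limma adjusted p = 0.334) and -1.76 ± 0.56 in total RNA (limma adjusted p = 0.255) with PP242. Leaving out the 8 arrays gave -1.15 ± 0.32 (limma adjusted p = 0.159) and -1.58 ± 0.32 (limma adjusted p = 0.066). With PP242 + IR it was -1.26 ± 0.56 in polysome RNA and -0.81 ± 0.32 without the 8 arrays. RAD001 read 8.91, 9.0 and 7.40 in polysome RNA, with 1 array just below the DMSO range, 1 inside it and replicate 3 far under it. Its difference was -0.81 ± 0.56, and -0.29 ± 0.32 without the 8 arrays. With IR alone CDC25A stood 0.42 ± 0.56 from DMSO, at 9.79, 9.39 and 9.83, overlapping DMSO.

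In both RNAs, the group means of CCNE2, E2F1 and CDC25A ran from highest to lowest in the order IR, DMSO, RAD001 + IR, RAD001, PP242 + IR and PP242. Over all arrays, neighbouring groups in this order overlapped for each of the 3 genes, so no step of it exceeded the spread. Without the 8 arrays the order was the same for CCNE2 and CDC25A in polysome RNA and differed in the other 4 cases; for E2F1 in polysome RNA it became RAD001 + IR, IR, RAD001, DMSO, PP242 + IR and PP242.

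**Figure D3:**
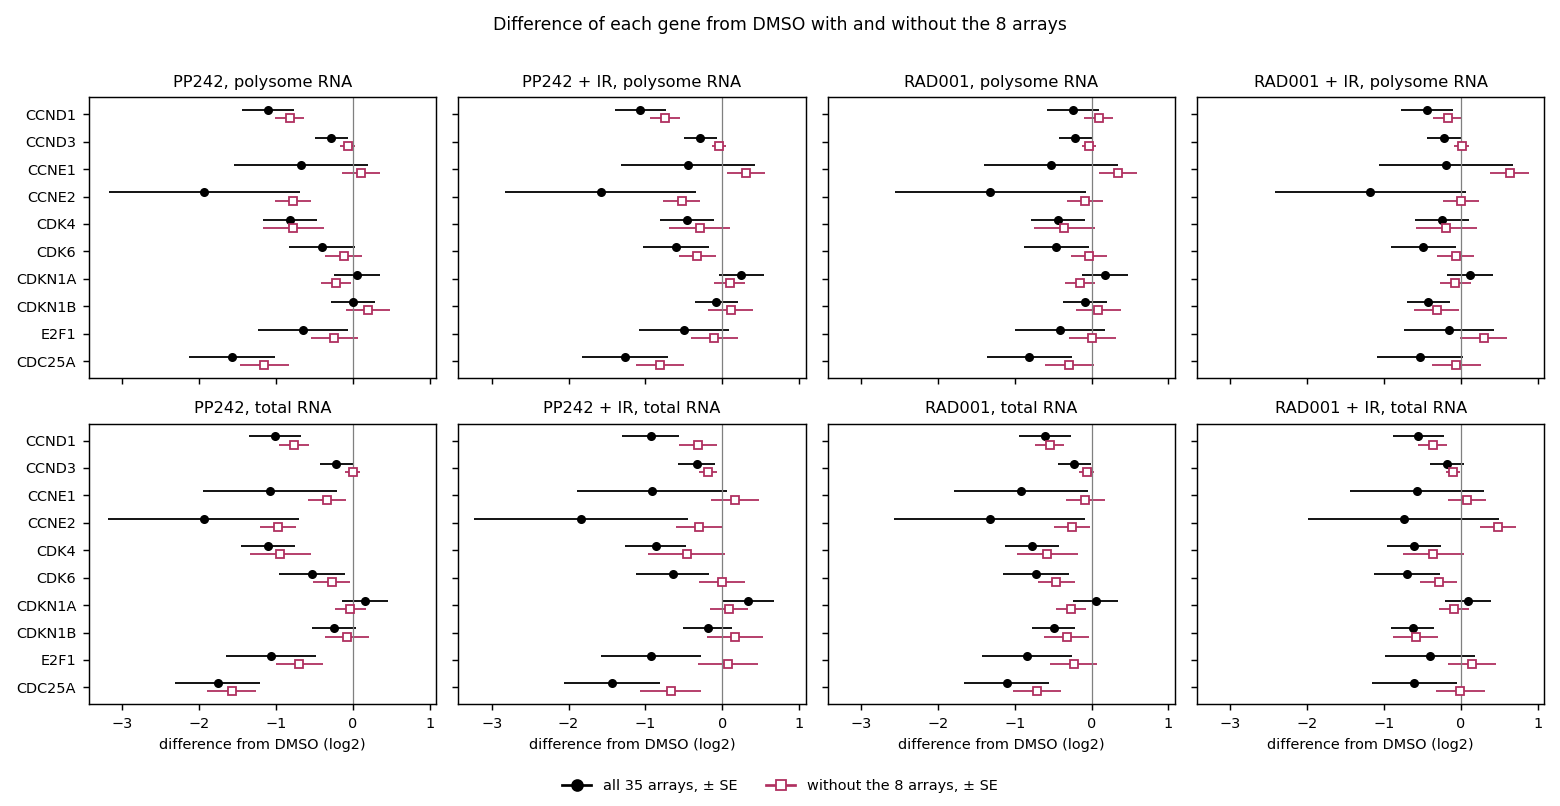
Difference from DMSO in log2 units (horizontal axis) of 10 genes (vertical axis) for 4 inhibitor treatments in polysome RNA (top) and total RNA (bottom). Filled circles use all 35 arrays and open squares leave out the 8 arrays, each ± SE; CCNE2 with PP242 in polysome RNA moves from -1.94 to -0.78 and CCND1 from -1.11 to -0.82.

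CDKN1A and CDKN1B encode inhibitors of these kinases. CDKN1A read 8.11, 8.06 and 7.48 with DMSO, 7.80, 7.53 and 8.48 with PP242, and 7.80, 7.66 and 8.71 with RAD001 in polysome RNA. Replicate 3 was the highest array of each inhibitor group and the lowest of DMSO, and the groups overlapped. PP242 stood 0.05 ± 0.30 from DMSO, or -0.22 ± 0.20 without the 8 arrays, and RAD001 0.17 ± 0.30. With IR, which in many cells raises p21 through p53, CDKN1A read 7.53, 7.78 and 7.65 in polysome RNA and stood -0.23 ± 0.30 from DMSO; in total RNA it stood 0.07 ± 0.30. The 95% interval of the polysome difference, -0.84 to 0.39, leaves out a rise of 1 log2 unit.

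CDKN1B, which binds both cyclin D and cyclin E kinases, read 9.33, 9.49 and 10 with DMSO in polysome RNA. With IR it read 9.14, 9.17 and 9.23, so that the IR arrays lay below all DMSO arrays. The difference was -0.42 ± 0.28 (95% interval -1.01 to 0.16). In total RNA RAD001 + IR read 8.62, 8.78 and 8.59 against 9.13, 8.79 and 9.95 with DMSO, again without overlap but with the nearest arrays close together; 5.54% of all genes were lower in this way. That difference was -0.63 ± 0.28 (limma adjusted p = 0.77). With PP242 in polysome RNA CDKN1B stood 0.00 ± 0.28 from DMSO.

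The inhibitors were set against each other at the one condition the labels give for each, with dose and time unknown. Of the 10 members, 8 read lower with PP242 than with RAD001 in polysome RNA, with a median of -0.20. CCND1 differed by -0.87 ± 0.34 (95% interval -1.56 to -0.18), and by -0.91 ± 0.21 without the 8 arrays (limma adjusted p = 0.275). Without only the 7 inhibitor arrays numbered 3 it differed by -0.91 ± 0.29 (limma adjusted p = 0.898). CDK4 stood lower without overlap, at -0.38 ± 0.35; 5.62% of all genes were lower without overlap here and 0.0268% (6 genes) were called, or 12 genes with the replicate number as a block. For CDC25A the difference was -0.77 ± 0.56 (95% interval -1.91 to 0.38) and for CCNE2 -0.62 ± 1.24. In total RNA CCND1 differed by -0.41 ± 0.34 (95% interval -1.10 to 0.28), and 0.00447% of all genes were called. No member passed the test between the inhibitors, alone or with IR; with IR 0.00447% of all genes were called in polysome RNA and 0% in total RNA. At an unadjusted p under 0.05 it was CCND1 in polysome RNA, where 3.05% of all genes passed, and 0 members in total RNA (4.72%) or with IR in polysome (2.2%) and total RNA (2.89%). Leaving out the 8 arrays left 2 arrays in each polysome group. Then 6 of 10 members lay lower with PP242 than with RAD001 without overlap in polysome RNA, where 23.8% of all genes did. With IR it was 7 of 10 (15.6% of all genes), against 0 of 10 over all arrays (4.28%).

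Adding an inhibitor to IR was compared with IR alone. In polysome RNA CCND1 read 12.28, 12.32 and 12.14 with IR, above all PP242 + IR arrays, and the difference was -1.06 ± 0.34 (limma adjusted p = 0.361). CDC25A differed by -1.69 ± 0.56 (limma adjusted p = 0.394). They were -0.74 ± 0.19 and -1.23 ± 0.32 without the 8 arrays. CCND1, CCNE2 and CDC25A lay below IR without overlap with PP242 + IR, where 8.23% of all genes did so and 0.13% were called, and these symbols also did so with RAD001 + IR, against the same IR arrays, where 6.13% did and 0% were called. In total RNA 6 of 10 members lay below IR without overlap with PP242 + IR, where 9.6% of all genes did and 0.0268% were called; that group has 2 arrays, of which 1 is among the 8. With RAD001 + IR 3 of 10 did (CDK6, CDKN1B and CDC25A; 6.81% of all genes), and 0.00447% were called. At an unadjusted p under 0.05, 2 members were lower than with IR in polysome RNA with PP242 + IR (5.71% of all genes), 3 in total RNA (5.53%), and with RAD001 + IR 0 in polysome (2.94%) and 1 in total RNA (6%). No interaction of IR with an inhibitor was called by limma for a member or any other gene. An unadjusted p under 0.05 was reached by 0 members, and by 1.01% and 1.31% of all genes for PP242 and 0.652% and 0.916% for RAD001 in polysome and total RNA.

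Polysome RNA was set against total RNA within each treatment. In the DMSO arrays CCND1, CCND3 and CDK4 read higher in polysome RNA without overlap, by 0.45, 0.35 and 0.86, where 15.5% of all genes did so and 4.16% were called; 1 member, CDK4, and 18.9% of all genes had an unadjusted p under 0.05. CDK4 was higher in polysome RNA in 6 of 6 treatments, by 0.29 to 1.27, and without overlap in 5. The share of all genes without overlap was computed with DMSO only. The means of CCND1, CCND3, CCNE1, CDK6 and CDC25A were also higher in polysome RNA in 6 of 6 treatments. The size of these differences depended on how the arrays were scaled. After quantile normalization the DMSO difference was 0.70 for CDK4, 0.28 for CCND1 and 0.28 for CCND3. For CCNE1 it went from 0.26 to 0.07, for CDK6 from 0.38 to 0.20 and for CDC25A from 0.49 to 0.30. E2F1 was lower in polysome RNA with DMSO and IR, by -0.21 and -0.34, and its arrays overlapped in all 6 treatments.

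Translational efficiency is the difference from DMSO in polysome RNA minus that in total RNA. No member and no other gene passed the test for it with any treatment (limma); an unadjusted p under 0.05 was reached by 0 members and by 0.88% of all genes with IR, 1.52% with PP242, 1.9% with RAD001, 2.21% with PP242 + IR and 3.06% with RAD001 + IR. With RAD001 all 10 members read above 0, with a median of 0.32 where that of all genes was 0.03 and 43.8% of them read below 0. CCNE2, at 0.00, read -0.01 after quantile normalization. The values of CCND1 were -0.09 with PP242 and 0.36 ± 0.48 with RAD001, with an interval of -0.61 to 1.34 for the latter. With RAD001 + IR 8 members read above 0, over a range of -0.44 to 0.37, where 42.4% of all genes read below 0. The members' median was 0.16 with PP242, 0.14 with PP242 + IR and 0.16 with RAD001 + IR. With the 8 arrays left out it was 0.33 with RAD001, 0.18 with PP242 and -0.10 with PP242 + IR, the last resting on 1 total RNA array, and CCND1 with RAD001 stood at 0.64 ± 0.27.

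**Figure D4:**
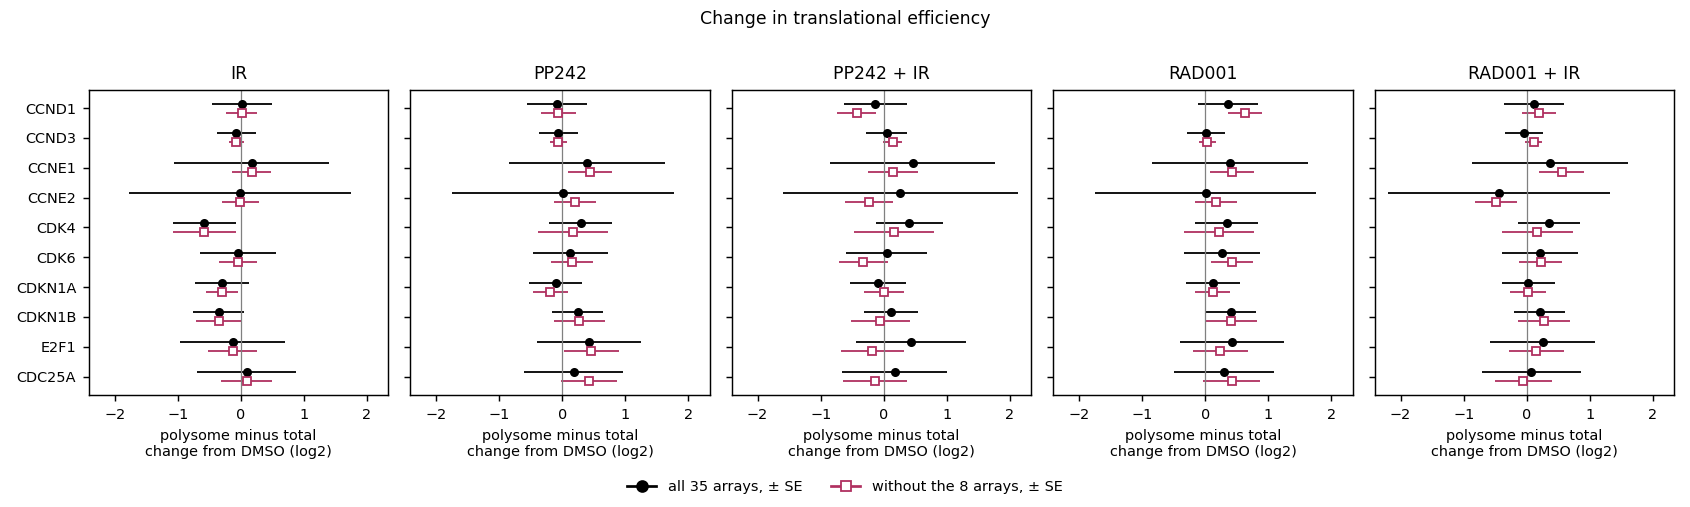
Difference from DMSO in polysome RNA minus that in total RNA, in log2 units (horizontal axis), of 10 genes (vertical axis) for 5 treatments. Filled circles use all 35 arrays and open squares leave out the 8 arrays, each ± SE; with RAD001 the circles run from 0.00 to 0.43.

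The other genes of the G1/S machinery were counted in 7 lists. None was called against DMSO. Of 10 measured G1/S target genes, which E2F factors switch on, 10 read below 0 with PP242 in polysome RNA (median -0.69) and 10 in total RNA (median -1.07). With RAD001 10 of 10 read below 0 as well (medians -0.60 and -0.85), and with IR 10 of 10 read above 0 (medians 0.20 and 0.11). Of all genes 46.6% to 54.2% read below 0 in these comparisons. Leaving those 8 arrays out, 9 of 10 read below 0 with PP242 in polysome RNA (median -0.14) and 10 in total RNA (median -0.55), and with RAD001 6 (median -0.04) and 10 (median -0.50). Then 8 read below 0 with PP242 + IR in polysome RNA (median -0.03) and 3 with RAD001 + IR (median 0.07). In total RNA it was 7 (median -0.10, from 1 PP242 + IR array) and 6 (median -0.13). Of 9 E2F and DP factors, 7 read below 0 with PP242 in polysome RNA (median -0.57), and of 9 pocket and DREAM proteins 8 did (median -0.33); without the 8 arrays these medians were -0.34 and -0.15. The 4 measured inhibitors CDKN1C, CDKN2A, CDKN2B and CDKN2D had a median of 0.05, and the 8 remaining cyclins and kinases one of -0.20, which turned to 0.05 without the 8 arrays, with 5 of 8 above 0.

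Single genes of these lists are named by their p in polysome RNA with PP242 or PP242 + IR. SKP2, which marks p27 for degradation, differed by -1.77 ± 0.53 with PP242 (limma adjusted p = 0.216) and -1.52 ± 0.53 with PP242 + IR. KLF6, a factor known to induce CDKN1A, differed by 1.55 ± 0.61 and 1.50 ± 0.61. E2F4, a repressive E2F factor, differed by -0.76 ± 0.27 and cyclin C (CCNC) by -0.58 ± 0.21 with PP242. With PP242 + IR the ubiquitin ligase scaffold CUL1 differed by -0.43 ± 0.15 and cyclin H (CCNH) by -0.27 ± 0.12. The single call among these 7 lists lay between RNAs: LIN37, a DREAM subunit, was higher in polysome than in total RNA with DMSO by 1.19 ± 0.18 (limma adjusted p = 0.000547).

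Members were also compared with each other across arrays. These correlations are descriptions, since the arrays share treatments, RNA fractions and the 8 arrays. Over 35 arrays Pearson's r was 0.93 between CCNE1 and CCNE2, 0.93 between CCNE2 and E2F1, and -0.78 between CCNE2 and CDKN1A. Without the 8 arrays they were 0.39, 0.66 and 0.09 over 27 arrays. The value for CCNE2 with CDC25A was 0.88 over 35 and 0.91 over 27 arrays, and that for CDK4 with CDC25A 0.74 in both.

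**Figure D5:**
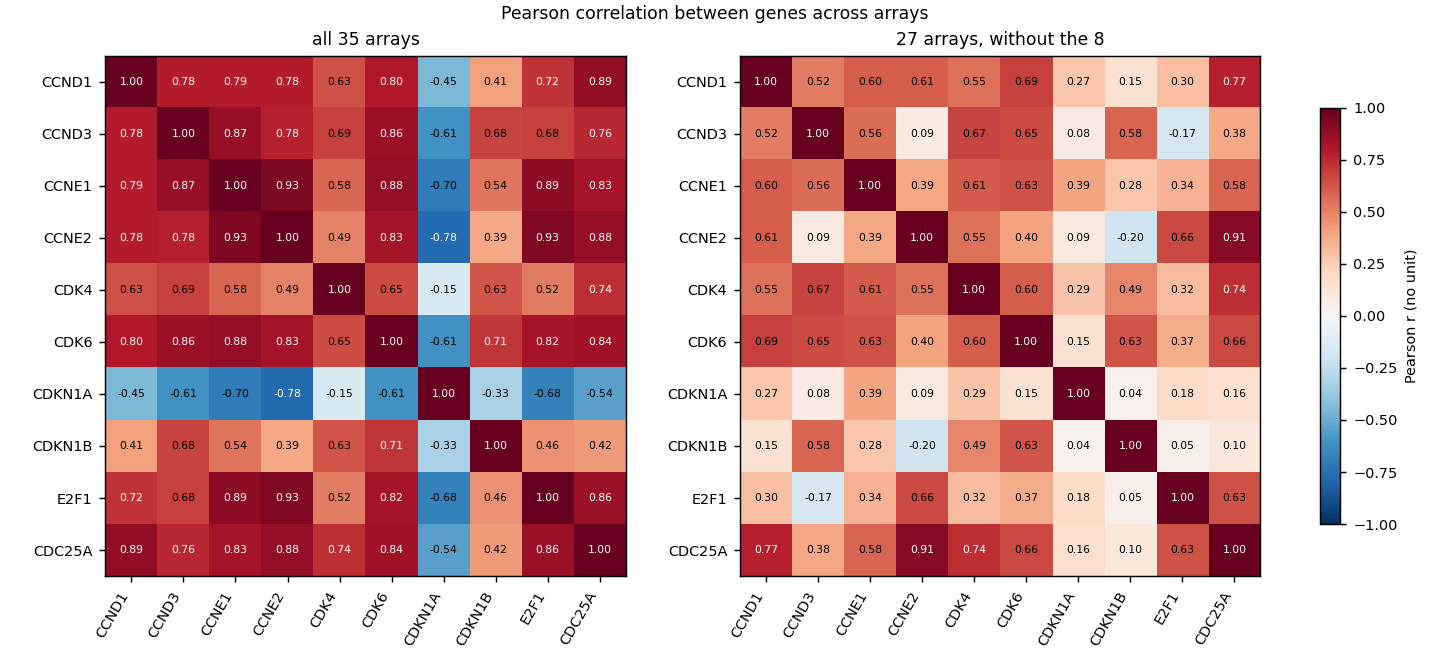
Pearson's r (colour and number, no unit) between each pair of 10 genes (both axes) over all 35 arrays (left) and over the 27 arrays without the 8 (right). CCNE1 with CCNE2 goes from 0.93 to 0.39, and CCNE2 with CDC25A from 0.88 to 0.91.

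The genes most like each member over the 35 arrays were then listed. For CDC25A they were CDC6 (r = 0.96, and 0.97 over 27 arrays), PPP2R1B and GMNN. For CCNE2 they were WDR76 (0.98, and 0.80 over 27), DONSON and DTL. For CCNE1 they were PCNA (0.98, and 0.87), RAB3B and SYK, and for E2F1 TCF19 (0.96, and 0.85), CARHSP1 and MYBL2. The closest gene to CDK4 was PSMB5 (0.96, and 0.94), to CDK6 ZWINT (0.97, and 0.91), to CCND1 NUP62 (0.91, and 0.87) and to CCND3 TUBA4A (0.95, and 0.87). CDKN1A was closest to THEM4 (0.92, and 0.77) and CDKN1B to RAP1GAP2 (0.87, and 0.83).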

How the data were processed

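The deposited table holds the authors' processed values for 65029 probe sets on 35 arrays, read as log2 from their range (1.85 to 19.9). How the background was corrected and the arrays normalized, and the scale, is not given in the sources used here. Names came from GEO's platform annotation: of the probe sets 23077 had 1 symbol, 1357 several and 40595 none in that table. Where several carried a symbol, that of the highest mean stood for it, giving 22384 genes. Promoter sequences are RefSeq's; 8 members were matched, not CCND1 or CCNE2.

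Groups came from the sample titles. All arrays entered 1 limma fit of 12 group means (limma 3.58.1, R 4.3.3, lmFit and eBayes, 23 residual and 2.69 prior degrees of freedom), and p-values were adjusted by Benjamini-Hochberg over all genes within each of 28 comparisons. The threshold in the series' design text (limma p under 0.05, log fold change above 1.5) was run as an alternative. Others were quantile normalization, a filter on low levels, a fit of the compared groups alone, array weights, trended robust moderation, the mean of a symbol's probe sets, a replicate block, and leaving out single arrays or the 7 or 8 arrays described above.

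The members, lists and comparisons were chosen with earlier results of these data known. All members are named; of the other listed G1/S genes, those past the threshold, or up to 4 with the lowest p in polysome RNA with PP242 or PP242 + IR; and the 3 genes most correlated with each member. The replicate numbers were checked for pairing on values centred on group means. In 7 of 24 pairs of groups every same-numbered pair of 3 correlated above 0.1, and r ran from -0.46 to 0.82 over all. Where both groups hold an array set apart under the same number, the centring raises r at every number. The check cannot tell this from pairing. The number of arrays limits the precision.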

Additional observations from a re-analysis of the deposited data

How the results depend on the processing

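Of 12320 values of a member under 44 refits, 35 of them leaving out 1 array, 12313 stayed uncalled, 7 became called and none of the called values changed sign; the design text's threshold, no refit, is counted apart. The 0 member calls in polysome RNA against DMSO became 1 with the replicate block (CCND1 with PP242, -1.11, limma adjusted p = 0.0257; it changed no other member's call), 2 with array weights (CCND1 -0.91, limma adjusted p = 0.0294; CDK4 -0.79, limma adjusted p = 0.0437) and 1 at the design text's threshold (CDC25A, -1.58). Over all its alternatives the adjusted p of CCND1 ran from 0.0257 to 0.292. In total RNA against DMSO the 0 became 1 at the design text's threshold (CDC25A with PP242, -1.76). Between treatments the 0 became 1 without the 7 arrays and 1 without the 8 (CCND3, polysome against total RNA with DMSO, 0.35), 2 with array weights (CCND3 and CDK4 in that comparison) and 2 at the design text's threshold (CDC25A with PP242 + IR against IR, -1.69 in polysome and -1.77 in total RNA). Leaving out each array in turn gave 0 calls in polysome RNA, in total RNA and between treatments, and translational efficiency gave 0 under all alternatives run; the causes were not tested.

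The count of all genes called with PP242 in polysome RNA, 60 (12 higher and 48 lower), was 104 after quantile normalization (62 higher and 42 lower), 174 with the replicate block, 1079 with array weights and 0 when only the compared groups were fitted. In total RNA the 28 became 96, 95, 181 and 0. The same-numbered arrays of PP242 and RAD001 in polysome RNA did correlate (r = 0.53 to 0.81), and the replicate block took that comparison from 6 to 12 called genes, with 0 members either way. Values were centred on group means first, so the replicate 3 set apart in both groups raises r at every number. These r values therefore cannot show whether the other numbers pair. PP242 + IR in total RNA without its replicate 2 is a single array, assumed to vary like the other groups; its CCND1 difference from DMSO then was -0.32, against -0.93 with both arrays.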
